A study of Mus musculus with 15 samples.

Results

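Of 10 Toll-like receptor genes and partners followed in mouse LSK cells, the genes for the endosomal receptor Tlr7, the receptor homologue Cd180 and the surface receptor Tlr2 rose over 18 h of culture with or without extracellular vesicles (EV). The gene for the inhibitor Irak3 passed the test in the culture without EV and not in that with EV, and none of the 10 differed by the test between the cultures with and without EV. The 10 genes were a fixed set: the receptors Tlr1, Tlr2, Tlr4, Tlr6, Tlr7 and Tlr9, the receptor homologue Cd180, the co-receptor Ly96 (MD-2), the adaptor Myd88 and the inhibitor Irak3 (IRAK-M). Each was matched by its symbol to a probe set that carries that symbol alone, and all 10 were found among the 22180 genes measured. Each had 1 probe set, so no choice between probe sets was needed.

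Toll-like receptors bind microbial products and nucleic acids, at the cell surface (Tlr1, Tlr2, Tlr4 and Tlr6) or in endosomes (Tlr7 and Tlr9). Ligand binding joins their intracellular TIR domains to the adaptor Myd88, which recruits IRAK kinases and leads to NF-kB and interferon regulatory factor activity, while Irak3 restrains this signal. Hematopoietic stem and progenitor cells carry several of these receptors, and their stimulation is known to favour myeloid output.

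LSK cells, which lack mature lineage markers and carry Sca-1 and Kit, were profiled in 3 groups of 5 biological replicates. The groups were cells taken directly after sorting (non-cultured), cells kept 18 h in Myelocult M5300 without EV, and cells kept 18 h in that medium with EV from AFT stromal cells. Each replicate was hybridised to 1 Mouse Gene 2.0 array from 500 pg of total RNA. No source used here gives the strain, age or sex of the mice, the tissue, or the number of animals behind a replicate. On the log2 scale the array medians ranged from 4.62 to 4.74. The array with EV of replicate 1 stood apart, with a mean correlation of 0.964 with its group against 0.974 to 0.976 for the other arrays with EV. Values are log2 signals and differences are in log2 units. Genes were called where limma's adjusted p, over all 22180 genes, was under 0.05. Without detection values a dim gene could not be told from background, and the number of arrays and each gene's spread between them limit the precision. In bulk RNA, fewer cells of a type and less RNA per cell cannot be told apart.

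The endosomal receptor gene Tlr7 showed the largest difference of the 10 genes. Tlr7, the receptor for single-stranded RNA, read 4.11, 4.15, 6.20, 5.10 and 5.18 in the non-cultured arrays of replicates 1 to 5. It read 7.74, 7.39, 7.84, 6.59 and 6.76 after 18 h without EV, and 7.22, 7.31, 7.66, 6.63 and 7.68 with EV. All 10 cultured arrays were above all 5 non-cultured ones, and the non-cultured group was itself spread, with replicate 3 highest. Tlr7 was 4.97-fold higher without EV than in non-cultured cells (log2 2.31, SE 0.36, limma adjusted p = 0.000346, 5 arrays in each group). With EV it was 5.09-fold higher than in non-cultured cells (log2 2.35, SE 0.36, limma adjusted p = 0.000305), a comparison that shares the 5 non-cultured arrays with the first. Tlr9, the endosomal receptor for CpG DNA, had means of 5.32 ± 0.17 (SD, n = 5) in non-cultured cells, 5.57 ± 0.35 without EV and 5.43 ± 0.52 with EV. The Tlr9 groups overlapped, and the difference without EV against non-cultured (log2 0.25, 95% interval -0.20 to 0.71) did not pass the test (limma adjusted p = 0.566).

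Cd180 (RP105), a Toll-like receptor homologue without a TIR domain that is known from B cells and myeloid cells, rose in both cultured groups. It read 6.77, 6.86, 6.93, 7.27 and 6.62 in non-cultured cells. It read 7.84, 7.82, 7.90, 7.57 and 7.76 without EV, and 7.60, 8.19, 8.04, 7.57 and 7.84 with EV. No cultured array reached down to the highest non-cultured array, that of replicate 4. Cd180 rose 1.85-fold without EV (log2 0.89, SE 0.14, limma adjusted p = 0.000293) and 1.94-fold with EV (log2 0.96, SE 0.14, limma adjusted p = 0.000149), both against non-cultured cells. Ly86 (MD-1), the secreted partner that Cd180 needs to reach the cell surface, also rose without EV, from 5.32 ± 0.56 to 6.57 ± 0.36 (SD, n = 5; log2 1.25, SE 0.26, limma adjusted p = 0.00337). With EV its mean was 6.21 ± 0.42, higher than in non-cultured cells by log2 0.88 (SE 0.26, limma adjusted p = 0.0302), a call that held in 14 of 25 alternatives and was lost, among others, without non-cultured replicate 1, 4 or 5 and without replicate 2, 4 or 5 with EV (adjusted p from 0.0556 to 0.0794). Against non-cultured replicates 1 to 3 alone, Ly86 with EV was higher by log2 0.54 and was not called (adjusted p = 0.223, over 0.00754 to 0.223).

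Irak3 encodes IRAK-M, a member of the IRAK family known to damp Myd88 signalling in monocytes and macrophages. It read 6.85, 6.92, 6.31, 7.05 and 7.17 in non-cultured cells, 7.67, 7.54, 7.55, 7.97 and 8.11 without EV, and 6.26, 7.56, 7.74, 7.76 and 7.66 with EV. All 5 arrays without EV and 4 of the 5 with EV were above every non-cultured array, and replicate 1 with EV was below all of them. Irak3 rose 1.87-fold without EV (log2 0.91, SE 0.25, limma adjusted p = 0.0237). With EV the difference from non-cultured cells was log2 0.53 (SE 0.25), which did not pass (limma adjusted p = 0.193). Without the EV array of replicate 1 that difference was log2 0.82 and passed (limma adjusted p = 0.00319, over a range of adjusted p from 0.00319 to 0.745 among 25 alternatives). The call without EV was lost without non-cultured replicate 3 (adjusted p = 0.0659), without replicate 4 of the EV-free culture (adjusted p = 0.0567) and without EV-free replicate 5 (adjusted p = 0.0628), over a range of 0.000838 to 0.368.

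Among the surface receptors Tlr2, which senses lipopeptides in pairs with Tlr1 or Tlr6, rose modestly. It read 6.33, 5.93, 6.50, 6.08 and 5.99 in non-cultured cells, 6.78, 6.77, 6.63, 6.40 and 6.47 without EV, and 6.24, 6.56, 6.80, 6.69 and 6.69 with EV. The groups overlapped, with non-cultured replicates 1 and 3 reaching into the cultured range. The difference was 1.36-fold without EV (log2 0.44, SE 0.13, limma adjusted p = 0.0329) and 1.35-fold with EV (log2 0.43, SE 0.13, limma adjusted p = 0.0372). These Tlr2 calls were narrow: the first was kept in 15 of 25 alternatives and the second in 11 of 25. Leaving out any of non-cultured replicates 2, 4 and 5 ended both, with adjusted p from 0.0703 to 0.0980.

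The partners of Tlr2 did not pass the test. Tlr6 read 5.36, 4.07, 4.25, 4.90 and 4.90 in non-cultured cells and 7.47, 5.39, 6.87, 5.06 and 4.26 without EV, the widest spread of the 10 genes, against 4.68 to 5.48 with EV. Replicates 1 and 3 without EV were high, replicate 2 was just above the non-cultured range, and replicates 4 and 5 were within it. The difference of log2 1.11 (SE 0.47) was not called (limma adjusted p = 0.15). Without replicate 5 of the EV-free culture the difference was called (log2 1.5, limma adjusted p = 0.0291, and 0.0291 to 0.579 over the alternatives). Tlr1 lay between 3.36 and 3.53 in non-cultured cells, 3.56 and 4.07 without EV and 3.58 and 4.15 with EV. Its cultured and non-cultured arrays did not overlap, yet the difference without EV was small (log2 0.24, SE 0.12, limma adjusted p = 0.239), and Tlr1 was the only 1 of the 10 genes among the dimmest 40% of genes by mean signal. Tlr1 and Tlr6 are close paralogues and neighbours on chromosome 5, and cross-hybridisation between their probe sets was not tested.

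The lipopolysaccharide receptor genes did not pass either. Tlr4 read 4.68, 5.23, 4.7, 5.28 and 5.17 in non-cultured cells, 5.13, 5.71, 5.69, 5.05 and 5.5 without EV, and 4.37, 5.12, 5.28, 5.18 and 5.32 with EV. These ranges overlapped throughout, with a difference of log2 0.40 without EV (SE 0.19, limma adjusted p = 0.219) and 0.04 with EV (SE 0.19, limma adjusted p = 0.932). Ly96, the MD-2 subunit that holds lipopolysaccharide on Tlr4, averaged 4.85 ± 0.39 in non-cultured cells, 5.49 ± 0.50 without EV and 5.06 ± 0.41 with EV (SD, n = 5). Its difference without EV was log2 0.65 (SE 0.25, limma adjusted p = 0.107). Myd88, the adaptor shared by most Toll-like receptors and the IL-1 receptor family, had means of 5.81 ± 0.38, 5.85 ± 0.60 and 5.99 ± 0.40 in the same order. For Myd88 the 95% interval of the difference without EV against non-cultured ran from -0.53 to 0.61, which leaves room for a change in either direction.

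**Figure D1:**
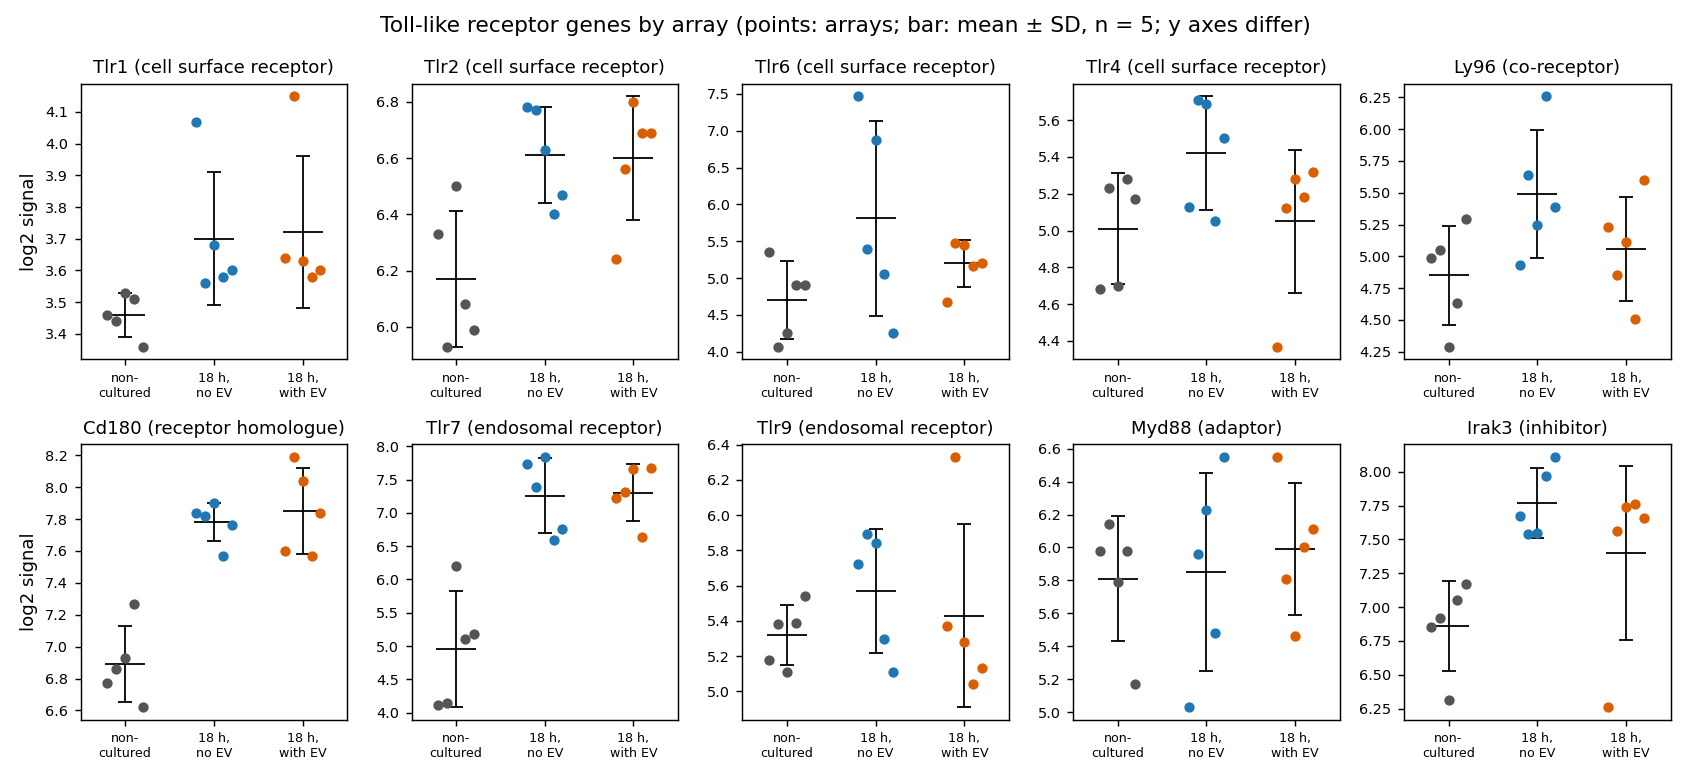
Log2 signal (vertical axes, which differ between panels) of the 10 genes in each array of the 3 groups, with the mean ± SD of 5 arrays as a bar. Tlr7, Cd180 and Tlr1 are higher in all 10 cultured arrays than in any non-cultured array, whereas Irak3 has 1 array with EV, at 6.26, below the non-cultured ones.

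Set against all genes, 4 of the 10 were called higher without EV against non-cultured and none lower, where 6.75% of the 22180 genes were called higher and 6.88% lower. All 10 differences were above 0, with a median of log2 0.55 against 0.01 over all genes. With EV against non-cultured, 3 of 10 were called higher (Tlr2, Cd180 and Tlr7) and none lower, beside 6.28% and 7.85% of all genes, and the median was 0.34 against 0.04. The arrays of Tlr1, Cd180, Tlr7 and Irak3 without EV lay wholly above the non-cultured ones, as did those of 5.89% of all genes, and none lay wholly below, beside 6.1%. With EV the arrays of Tlr1, Cd180 and Tlr7 lay wholly above, beside 5.06% of all genes, and none below, beside 6.18%. At an unadjusted p under 0.05 there were 6 of 10 without EV, beside 24.3% of all genes, and 4 of 10 with EV, beside 26.0%. The genes were chosen with earlier results of these data known, so these shares describe the set.

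The comparison of culture with EV against culture without EV, which asks what the vesicles add, called none of the 10 genes with limma, and 0 of the 10 had an unadjusted p under 0.05, where 0.198% of all genes were called (0.18% higher and 0.018% lower) and 6.82% had such an unadjusted p. For none of the 10 did the arrays of these groups lie wholly apart, beside 0.762% of all genes wholly above and 0.437% wholly below. The differences ran from log2 -0.62 for Tlr6 (95% interval -1.62 to 0.39) to 0.14 for Myd88 (95% interval -0.43 to 0.70). For the genes that rose in culture, the intervals were -0.22 to 0.36 for Cd180, -0.29 to 0.26 for Tlr2, -0.91 to 0.16 for Irak3 and -0.74 to 0.80 for Tlr7. The intervals for Cd180, Tlr2 and Tlr7 leave room for differences smaller than the rise of each gene without EV, while that for Irak3 reaches a difference as large as its rise (log2 0.91). Tlr4 (log2 -0.37, SE 0.19, limma adjusted p = 0.761) and Ly96 (log2 -0.44, SE 0.25, limma adjusted p = 0.771) were lower with EV in 18 and 20 of the 25 pairs of arrays and did not pass.

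**Figure D2:**
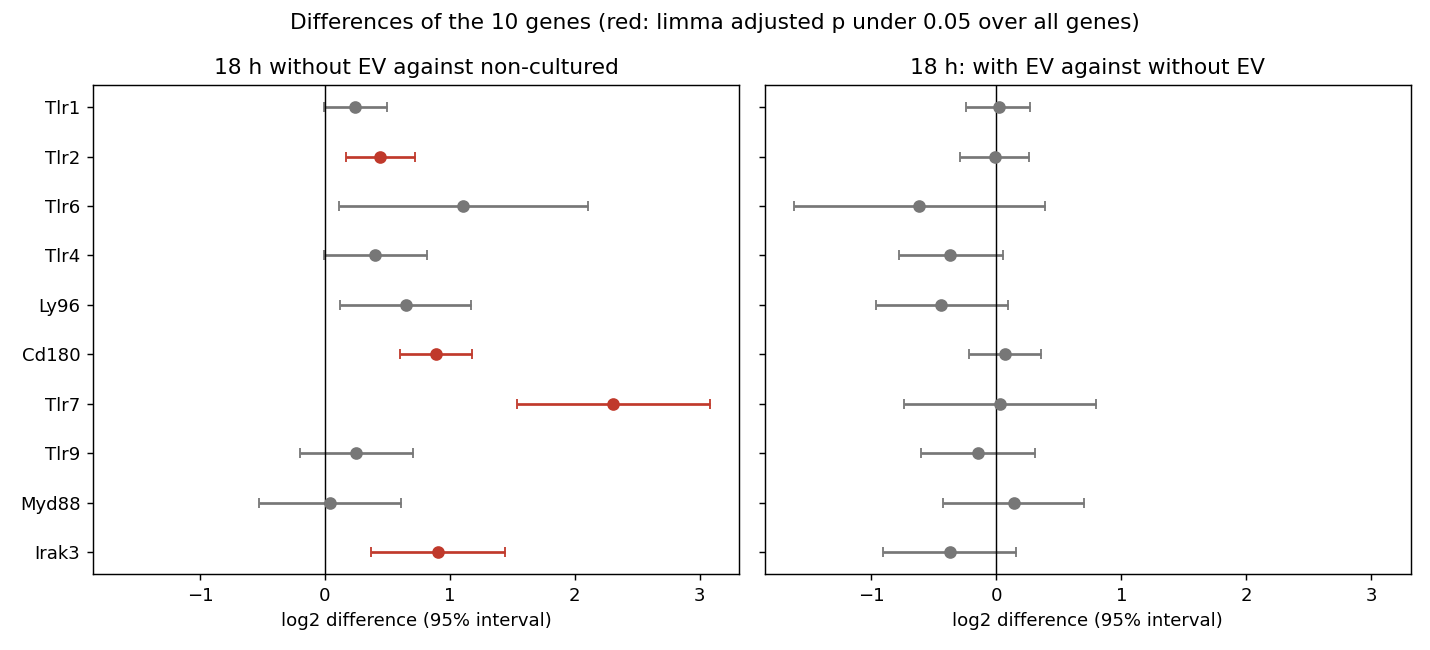
Log2 difference (horizontal axes, points, with 95% intervals as bars) of the 10 genes for 18 h without EV against non-cultured (left) and for with EV against without EV (right). Tlr2, Cd180, Tlr7 and Irak3 are called in the left panel, and the intervals of all 10 genes include 0 in the right panel.

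The other Toll-like receptor genes were read from a list of 6. Tlr13, an endosomal receptor for bacterial ribosomal RNA in mice, read 3.51, 3.63, 3.52, 3.17 and 2.93 in non-cultured cells, 6.48, 7.0, 5.39, 4.17 and 5.48 without EV, and 4.49, 7.18, 4.93, 4.56 and 5.20 with EV. Every cultured array was above every non-cultured one, with a wide spread after culture. Tlr13 rose 5.09-fold without EV (log2 2.35, SE 0.51, limma adjusted p = 0.00471) and 3.79-fold with EV (log2 1.92, SE 0.51, limma adjusted p = 0.0176). Against non-cultured replicates 4 and 5 alone, Tlr13 was higher by log2 2.65 without EV (adjusted p = 0.0517, over 0.000767 to 0.0517). Its call with EV was lost against replicates 1 to 3 (adjusted p = 0.0963) and against 4 and 5 (adjusted p = 0.109, the highest of a range from 0.00411). Tlr8, a relative of Tlr7 that lies beside it on the X chromosome, was called without EV at a low signal (2.55 ± 0.19 to 2.88 ± 0.15, log2 0.33, SE 0.10, limma adjusted p = 0.0402). That call held in 11 of 24 alternatives and was lost, for example, without non-cultured replicate 1 (adjusted p = 0.111, over a range of 0.0254 to 0.207). With EV, Tlr8 averaged 2.63 ± 0.06 and was not called against non-cultured cells. The other 4 of the list, Tlr3, Tlr5, Tlr11 and Tlr12, were not called. Thus 2 of the 6 were called higher without EV, beside 6.75% of all genes, and 1 with EV, beside 6.28%.

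Unc93b1, the chaperone that carries nucleic acid-sensing Toll-like receptors from the endoplasmic reticulum to endosomes, averaged 7.28 ± 0.30 in non-cultured cells, 7.96 ± 0.22 without EV and 7.89 ± 0.42 with EV (SD, n = 5). It rose by log2 0.68 without EV (SE 0.19, limma adjusted p = 0.0239) and by log2 0.61 with EV (SE 0.19, limma adjusted p = 0.0386). The first Unc93b1 call was lost without non-cultured replicate 2 or 4 and without replicate 1 or 3 of the group without EV, with adjusted p from 0.0512 to 0.0635. It was also lost against non-cultured replicates 1 to 3 (adjusted p = 0.135) and against 4 and 5 (adjusted p = 0.0569). The Unc93b1 call with EV held in 13 of 25 alternatives, with adjusted p up to 0.19, and was lost without non-cultured replicate 1, 2, 4 or 5 and without replicate 1, 2 or 5 with EV. Lbp, which delivers lipopolysaccharide to the Tlr4 complex, fell from 7.84 ± 0.32 to 6.66 ± 0.42 without EV (log2 -1.18, SE 0.21, limma adjusted p = 0.00107). With EV, Lbp averaged 6.46 ± 0.35, a difference of log2 -1.38 from non-cultured cells. In all, 2 of 8 measured co-receptors and chaperones rose (Ly86 and Unc93b1) and 1 fell (Lbp), both without EV and with EV. The shares of all genes called higher and lower were 6.75% and 6.88% without EV, and 6.28% and 7.85% with EV.

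**Figure D3:**
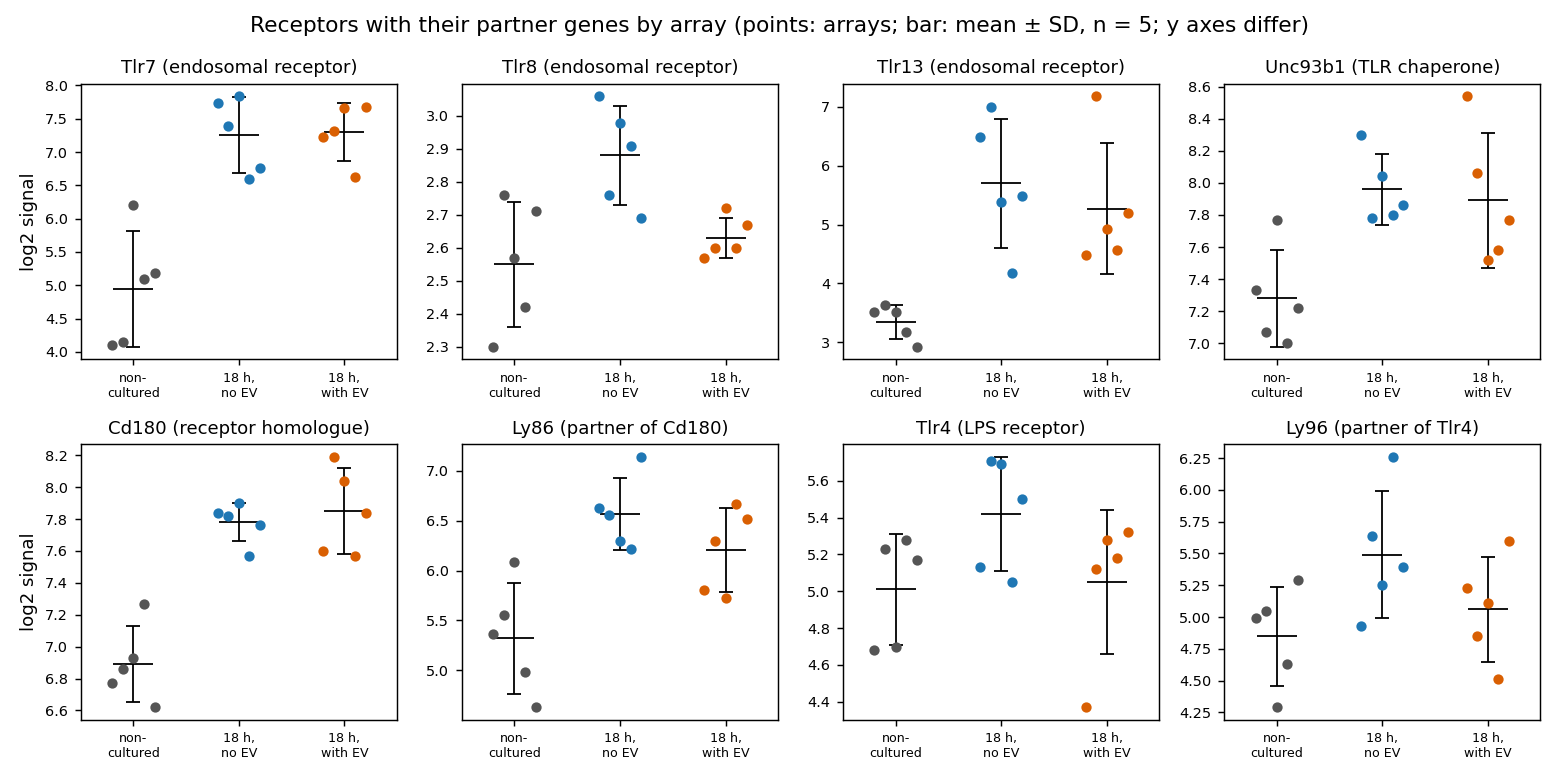
Log2 signal (vertical axes, which differ between panels) by array for Tlr7, Tlr8, Tlr13 and the chaperone Unc93b1, and for Cd180 with Ly86 and Tlr4 with Ly96, with the mean ± SD of 5 arrays as a bar. The cultured arrays of Tlr7, Tlr13 and Cd180 lie above all non-cultured arrays, while those of Tlr4 and Ly96 overlap them.

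Promoter windows from RefSeq (build GRCm38.p6, 250 bases before to 50 after a gene's start) were found for 7 of the 10 genes. No window was matched for Tlr4, Tlr7 and Ly96. The windows of the other 3 genes that rose are shown because each was called higher without EV. Capitals mark matches to 3 short motifs searched on both strands: the PU.1 core GAGGAA, an NF-kB type motif (GGG and TTCC with any 3 bases between them) and the AP-1 motif TGANTCA. None of the matches shown overlaps another. A match is a description of letters, not evidence of binding.
Tlr2, chr3:83841559-83841858, minus strand: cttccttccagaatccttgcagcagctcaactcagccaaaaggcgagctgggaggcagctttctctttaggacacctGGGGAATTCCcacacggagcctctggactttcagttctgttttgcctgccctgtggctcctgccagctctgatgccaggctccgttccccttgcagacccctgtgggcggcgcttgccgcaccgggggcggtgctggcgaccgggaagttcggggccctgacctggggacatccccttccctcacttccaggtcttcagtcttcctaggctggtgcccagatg
Irak3, chr10:120202081-120202380, minus strand: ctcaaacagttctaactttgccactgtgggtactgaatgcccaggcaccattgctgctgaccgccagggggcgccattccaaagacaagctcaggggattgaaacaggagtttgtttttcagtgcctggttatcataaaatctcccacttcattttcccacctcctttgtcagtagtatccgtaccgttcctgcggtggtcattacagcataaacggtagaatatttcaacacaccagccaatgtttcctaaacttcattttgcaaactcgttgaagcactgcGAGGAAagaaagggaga
Cd180, chr13:102693297-102693596, plus strand: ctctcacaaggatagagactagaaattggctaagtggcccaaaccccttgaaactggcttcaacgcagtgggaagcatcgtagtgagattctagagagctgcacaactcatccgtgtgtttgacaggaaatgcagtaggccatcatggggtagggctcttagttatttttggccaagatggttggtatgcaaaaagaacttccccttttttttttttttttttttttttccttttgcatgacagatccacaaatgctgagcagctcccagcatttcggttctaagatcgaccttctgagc

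The Tlr2 window holds 1 NF-kB type match, GGGGAATTCC, which begins at position -173 from the start. The Irak3 window holds 1 PU.1 core, which begins at position 34 after the start, and the window of another Irak3 start holds none of the 3 motifs. The Cd180 windows hold none of the 3. Members that were not called hold matches too. A Tlr6 window holds 1 NF-kB type match, a Tlr1 window 1 PU.1 core, and the Tlr9 window 2 PU.1 cores and 1 AP-1 match. Of all 32851 promoter windows, 28.3% hold the PU.1 core, 5.56% the NF-kB type motif and 7.81% the AP-1 motif. The NF-kB motif was made stricter after the windows had been seen. Among pathway genes with a window, the NF-kB type motif was in those of 5 of the 17 genes that fell without EV, including Tnfaip3 and Nfkbia, and of 1 of the 14 that rose (Il6, named after its value was seen). It was also in those of 8 of the 44 pathway genes not called (18.2%), beside 6.45% of all genes tested that have a window. The PU.1 core was in windows of 10 of the 17 that fell, 7 of the 14 that rose and 18 of the 44 not called. Of all genes tested that have a window, 30.2% hold the PU.1 core. The AP-1 motif was in windows of 1, 2 and 2 genes in the same order, beside 8.42% of all such genes.

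The intracellular part of the pathway did not move as a block. For all pathway and marker lists that follow, the share of all genes called was 6.75% higher and 6.88% lower without EV, and 6.28% and 7.85% with EV, both against non-cultured cells. Of 5 further adaptors, Ticam1 (TRIF), the adaptor of Tlr3 and of endosomal Tlr4, rose from 5.33 ± 0.07 to 6.11 ± 0.24 without EV (log2 0.77, SE 0.15, limma adjusted p = 0.0025; adjusted p = 0.0794 against non-cultured replicates 4 and 5 alone, the highest of a range from 0.000774), and Pik3ap1 (BCAP) fell (log2 -0.66, SE 0.19, limma adjusted p = 0.0275). The Pik3ap1 value depended on the non-cultured reference and was log2 -0.13 (adjusted p = 0.796) against non-cultured replicates 4 and 5 alone. Tirap, which links Myd88 to Tlr2 and Tlr4, differed by log2 0.29 (SE 0.17, limma adjusted p = 0.347). Of 19 measured kinases, ligases and factors, 4 rose and 3 fell. Ikbkg (NEMO), the regulatory subunit of the IkB kinase complex, rose from 5.73 ± 0.15 to 7.04 ± 0.39 (log2 1.31, SE 0.15, limma adjusted p = 1.76e-05). Map3k8 (TPL2), a kinase that links Toll-like receptors to ERK, fell (log2 -0.72, SE 0.13, limma adjusted p = 0.00119), as did Traf6, the ubiquitin ligase downstream of the IRAK kinases (log2 -0.75, SE 0.18, limma adjusted p = 0.00981). Against non-cultured replicates 4 and 5 alone, Traf6 was lower by log2 -0.38 and was not called (adjusted p = 0.384, over 0.00133 to 0.384).

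Negative regulators went in opposite directions. Of 13 measured, beside Irak3, 2 rose and 4 fell without EV. The lipid phosphatase gene Inpp5d (SHIP1) rose 2.84-fold (log2 1.51, SE 0.11, limma adjusted p = 8.05e-08). The 4 that fell included Tnfaip3 (A20) by 2.02 on the log2 scale (SE 0.12, limma adjusted p = 2.08e-08), Zc3h12a (Regnase-1) by 1.26 (SE 0.20) and Nfkbia (IkBa) by 1.11 (SE 0.14). Thus Irak3 and Tnfaip3, which both restrain Toll-like receptor signals, differed from non-cultured cells in opposite directions. Tnfaip3 read 8.02 to 8.51 in non-cultured arrays and 6.05 to 6.36 without EV.

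Genes that Toll-like receptor signals are known to induce were mostly lower or not called. Of 22 measured, 7 fell and 1 rose without EV, beside 6.88% and 6.75% of all genes. Ptgs2, the inducible cyclooxygenase, fell from 8.61 ± 0.79 to 3.63 ± 0.31 (log2 -4.98, SE 0.29, limma adjusted p = 1.44e-08), and the chemokine genes Ccl4 (log2 -2.29, SE 0.25) and Ccl3 (log2 -1.14, SE 0.11) and the NF-kB cofactor Nfkbiz (log2 -2.57, SE 0.16) fell as well. The gene that rose was Il6, from 2.56 ± 0.11 to 3.21 ± 0.28 (log2 0.65, SE 0.13, limma adjusted p = 0.00306), at a signal among the dimmest 40% of genes, and it was not called against non-cultured replicates 4 and 5 alone (adjusted p = 0.0964, over 0.00146 to 0.0964). In the IL-1 receptor family, which shares Myd88, 3 of 6 fell and none rose. Il1r2, the decoy receptor for IL-1, fell from 7.77 ± 1.07 to 4.59 ± 0.35 (log2 -3.18, SE 0.38, limma adjusted p = 2.66e-05). Its size depended on the non-cultured reference, at log2 -3.91 against replicates 1 to 3 and -2.09 against replicates 4 and 5. Il18r1, the IL-18 receptor, fell by 0.88 on the log2 scale (SE 0.15, limma adjusted p = 0.00088).

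Of 15 measured pattern recognition receptors and partners outside the family, 4 rose and 3 fell. Casp1, the inflammasome protease, rose (log2 0.71, SE 0.14, limma adjusted p = 0.0019), as did Mavs, the adaptor of cytosolic RNA sensors (log2 1.0, SE 0.21, limma adjusted p = 0.00346; adjusted p = 0.0584 against non-cultured replicates 4 and 5 alone, the highest of a range from 0.00163), whereas the DNA sensor gene Cgas fell (log2 -0.40, SE 0.12, limma adjusted p = 0.0275). The Cgas call held in 17 of 24 alternatives and was lost, among others, without non-cultured replicate 4 or 5 and without EV-free replicate 1, 4 or 5 (adjusted p from 0.0538 to 0.0724). Against non-cultured replicates 1 to 3 alone, Cgas was lower by log2 -0.28 and was not called (adjusted p = 0.2, over 0.0082 to 0.2). Over all 8 pathway lists, 16 of 94 measured genes rose and 22 fell without EV, with a median of log2 -0.05, and 12 rose and 21 fell with EV against non-cultured. With EV against without EV, limma called 0 of these 94 genes, and 5 (beside 6.82% of all genes) had an unadjusted p under 0.05.

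**Figure D4:**
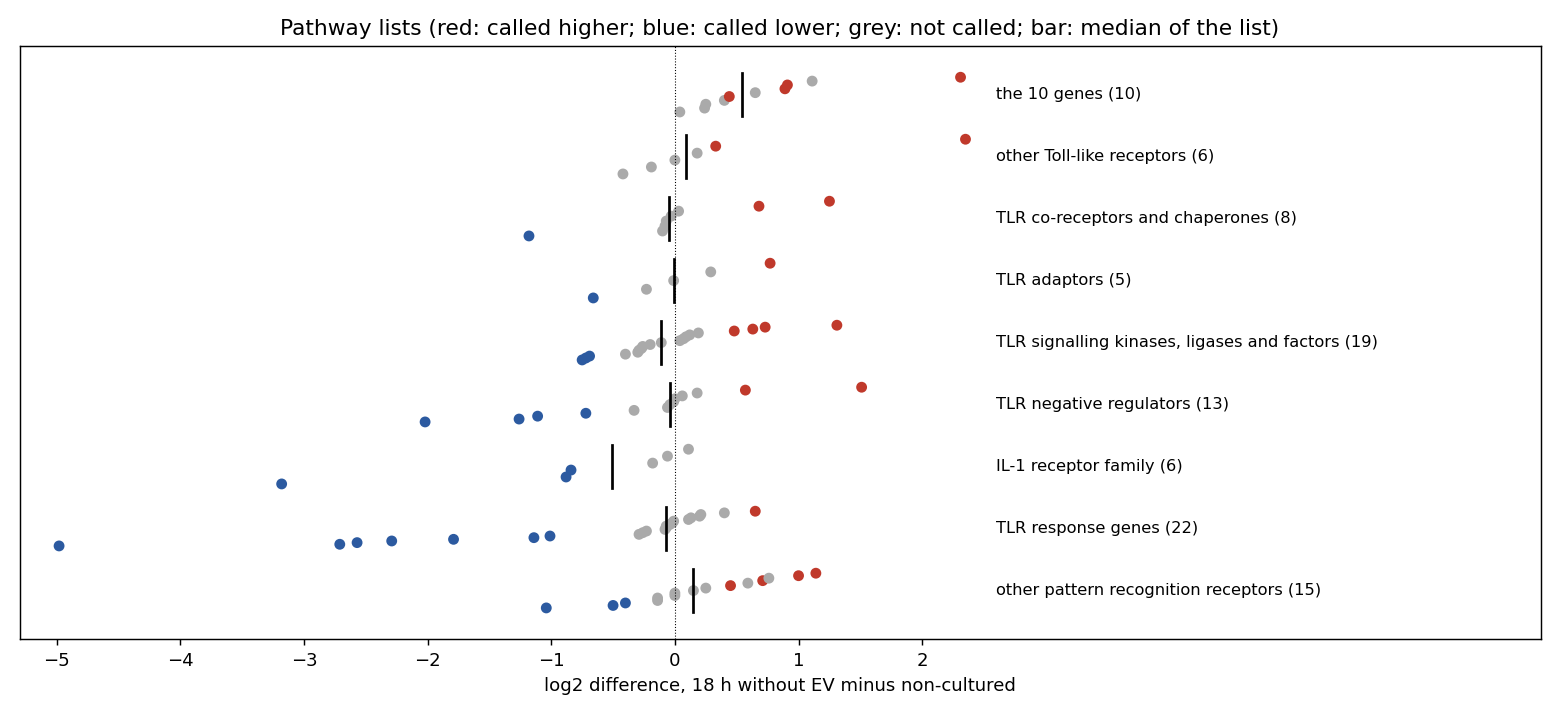
Log2 difference, 18 h without EV minus non-cultured (horizontal axis), of each measured gene (points) of the 10 genes and of 8 pathway lists (rows, with the number of genes), with list medians as bars. The 10 genes all lie above 0, whereas the response genes reach down to -4.98 for Ptgs2.

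Myeloid markers rose in the same comparison. Of 10 measured macrophage and monocyte markers 6 rose without EV, including Csf1r (log2 2.24, SE 0.17), Ccr2 (log2 2.10, SE 0.19) and F13a1 (log2 3.13, SE 0.20), and their mean log2 signal moved from 5.26 to 5.48 in non-cultured arrays to 6.35 to 6.68 without EV and 6.28 to 6.69 with EV. The 4 not called were C1qa, C1qb, C1qc and Mrc1. Other macrophage markers of the list were among the 6 called without EV: Adgre1 (3.89 ± 0.16 to 4.44 ± 0.30) and Cd68 (7.29 ± 0.25 to 8.56 ± 0.26). These markers were named after their values were seen. Of 8 neutrophil markers 5 were called higher without EV and 3 with EV, both against non-cultured cells. Their list means were 4.89 to 6.51, 7.03 to 8.14 and 7.09 to 7.62 in the same order of groups. Of the myeloid factors, Irf8 rose without EV (log2 1.63, SE 0.26, limma adjusted p = 0.000427) and 0 of the other 6 was called by limma. An unadjusted p under 0.05 was found for 4 of the 7, beside 24.3% of all genes. The plasmacytoid dendritic cell marker Siglech rose (log2 1.18, SE 0.23, limma adjusted p = 0.0022; adjusted p = 0.124 against non-cultured replicates 4 and 5 alone), and the dendritic list of 6 had 1 higher and 1 lower.

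Of 7 measured LSK markers 3 were called higher without EV and none lower, and with EV 1 was called higher. The differences without EV were above 0 for 4 of the 7 markers. Flt3 rose from 8.97 ± 0.06 to 9.60 ± 0.06 (log2 0.63, SE 0.07, limma adjusted p = 7.09e-06), and Kit, at 9.62 ± 0.25 in non-cultured cells, was 10.01 ± 0.08 without EV and 9.88 ± 0.21 with EV. The Kit call (limma adjusted p = 0.0429) held in 11 of 25 alternatives and was lost without any of non-cultured replicates 1, 2 and 3, EV-free replicates 1, 2, 3 and 4, and replicates 2, 4 and 5 with EV (adjusted p from 0.0505 to 0.110). Against non-cultured replicates 4 and 5 alone, Kit differed by log2 0.16 without EV and was not called (adjusted p = 0.676, over 0.00992 to 0.676). The third, Gata2 (log2 0.69, SE 0.21, limma adjusted p = 0.042), held in 12 of 25 alternatives, with adjusted p up to 0.383, and was lost without any of non-cultured replicates 1, 2, 3 and 5 and without EV-free replicate 2, 3, 4 or 5 or replicate 3 with EV. Slamf1 went the other way without EV, by log2 -0.51 at a low signal (4.31 ± 0.38 to 3.80 ± 0.15), and was not called. It was called lower in 6 of 24 alternatives, among them against non-cultured replicates 4 and 5 alone (log2 -0.86, limma adjusted p = 0.0171). None of 5 B cell markers and none of 8 stromal markers was called without EV, while 1 of 6 T and NK cell markers, Nkg7, fell (log2 -2.11, SE 0.20). With EV against non-cultured, 2 of the 8 stromal markers were called higher. The part of these marker changes in the Toll-like receptor results was not tested.

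Non-cultured replicates 4 and 5 had lower neutrophil list means (4.89 and 4.91) than replicates 1 to 3 (6.36 to 6.51). Tlr7 was higher without EV against either set, by log2 2.44 against replicates 1 to 3 (limma adjusted p = 0.00207) and 2.12 against replicates 4 and 5 (adjusted p = 0.00222), within a range of 4.51e-05 to 0.00222 over all alternatives. Cd180 was higher by log2 0.92 and 0.83 (limma adjusted p = 0.000553 and adjusted p = 0.0233), within 0.000112 to 0.0233. Irak3 was called against replicates 1 to 3 (log2 1.07, limma adjusted p = 0.0299) and not against 4 and 5 (log2 0.65, adjusted p = 0.368), whereas Tlr2 was called against 4 and 5 (log2 0.58, adjusted p = 0.0474) and not against 1 to 3 (log2 0.36, adjusted p = 0.184).

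The genes whose pattern over the 15 arrays was most like that of each rising member were found by Pearson's r, given here as a measure of likeness. Because cultured and non-cultured arrays form separate clusters, r over 15 arrays follows that split, and r within the 10 cultured arrays is given beside it. For Tlr7 the most alike were Mdfi (0.967 over 15 arrays and 0.802 within the cultured ones), Fkbp5, which encodes an FK506-binding co-chaperone (0.959 and 0.671), and Gda, guanine deaminase (0.952 and 0.822). For Cd180 they were Shprh (0.956 and 0.836), Csf1r, the receptor of the macrophage growth factor (0.956 and 0.620), and the lysosomal prosaposin gene Psap (0.954 and 0.795). For Irak3 they were Smarca2 (0.943 and 0.922), Osbpl3 (0.920 and 0.869) and Phtf1 (0.913 and 0.929). For Tlr2 they were Anxa7 (0.914 and 0.899), Asph (0.897 and 0.774) and the lysosomal lipase gene Lipa (0.880 and 0.823). The EV array of replicate 1 was the lowest of the 10 cultured arrays for Irak3 (6.26), Smarca2 (8.23), Osbpl3 (5.0) and Phtf1 (7.11). It was also the lowest for Tlr2 (6.24), Anxa7 (7.26), Asph (6.74) and Lipa (6.77). Their r within the cultured arrays therefore leans on that array, and r without it was not tested.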

How the data were processed

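The authors deposited 1 value per probe set of each Mouse Gene 2.0 array, read here as log2 from the range of values, since no source used here states the base. The submitters' processing notes name MAS5 alone, with neither role nor version, and no source used here gives the background correction or normalization. Values were used as deposited. Probe sets with exactly 1 gene symbol in the platform annotation were kept (23521 of 41345), the brightest per gene, which left 22180 genes.

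A group-means model over all 15 arrays was fitted with limma 3.58.1 in R 4.3.3 (lmFit, eBayes; 12 residual and 3.66 prior degrees of freedom), with two-sided p-values adjusted by Benjamini-Hochberg over all genes in each comparison. Intervals are 95% and moderated. The fit was tested on simulated data. The text could name the 10 members, from each of 16 lists the 4 genes with the smallest adjusted p without EV against non-cultured, a few fixed pathway genes, and for each member the 3 genes of highest Pearson's r. The members, lists and alternatives were chosen with earlier results of these data known. Of 103 pathway list genes, 94 were measured. Replicate numbers were not used to pair the samples in this model.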

Additional observations from a re-analysis of the deposited data

Results flagged for a closer look

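Single arrays far from the other 4 of their group were sought in 30 groups of 5 values, of which chance alone marks about 1 in 20, and 5 were found. Irak3 read 6.26 with EV in replicate 1, where the nearest array read 7.56, and Tlr4 read 4.37 in the same array, nearest 5.12. Tlr1 read 4.15 and Tlr9 read 6.33 with EV in replicate 2, with nearest arrays of 3.64 and 5.37. Tlr1 also read 4.07 without EV in replicate 1, nearest 3.68.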

How the results depend on the processing

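Each result was recomputed under 25 alternatives: other normalizations, filters and fits, other non-cultured references, and leaving out each array in turn. Tlr7 and Cd180 were called higher in both cultured groups in all 25. The count of members called lay between 3 and 4 without EV against non-cultured, at 0 with EV against without EV, and between 2 and 4 with EV against non-cultured; the filter on dim genes removed Tlr1, which gave no value there. Against non-cultured replicates 4 and 5 alone, a smaller reference, 1438 genes were called without EV and 1369 with EV, with 21 and 19 pathway genes. Leaving out 1 array moved the genes called with EV against without EV to 29 to 53, the lowest without replicate 2 of the group without EV.

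Differences that changed sign were small and not called. For with EV against without EV, Tlr2 was 0.06 and Myd88 -0.02 with array weights, Tlr1 -0.03 and Tlr7 -0.01 with arrays centred on their medians, and Tlr1 -0.02 and Tlr2 0.04 after quantile normalization. Without EV against non-cultured, Myd88 was -0.12 against replicates 1 to 3 and -0.01 after quantile normalization. With EV against non-cultured, Tlr4 was -0.03 centred, -0.03 after quantile normalization and -0.18 against replicates 4 and 5, where Tlr9 was -0.04. Leaving out 1 array gave ranges for with EV against without EV of -0.09 to 0.11 for Tlr1, -0.07 to 0.08 for Tlr2, -0.02 to 0.14 for Cd180, -0.13 to 0.20 for Tlr7 and -0.07 to 0.31 for Myd88. It gave -0.14 to 0.24 for Myd88 without EV, and with EV -0.04 to 0.21 for Tlr4 and -0.12 to 0.21 for Tlr9, against non-cultured. The cause was not tested. As a block, the replicate number left 2987, 39 and 3063 genes called against 3022, 44 and 3135 in the 3 comparisons, and ended the Tlr2 call with EV (adjusted p = 0.0552, over a range of 0.0106 to 0.198). Correlations of the deviations of same-numbered arrays ran from -0.125 to 0.187 over the 3 comparisons. Between the cultures with and without EV they were all positive, at 0.187, 0.061, 0.044, 0.023 and 0.059 for replicates 1 to 5. There, differently numbered arrays had correlations from -0.083 to 0.069. Whether the numbers mark shared samples was not tested.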
